A study of Mus musculus with 1528 samples.

Results

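The mouse Fc gamma receptors and the signalling chain they share were followed in single macrophages given IL4+IL13 with or without TNF. The 5 genes were taken by name from the 55421 genes of the count table: *Fcgr1*, *Fcgr3* and *Fcgr4*, which encode the activating receptors, *Fcgr2b*, which encodes the inhibitory receptor, and *Fcer1g*, which encodes the FcR gamma chain. No cut on measured values was used to choose them, but earlier results of these data were known at the time. The cells were bone marrow–derived macrophages (BMDMs) grown with M-CSF from wild-type C57BL/6 mice (C57BL/6J in the study's methods). They were stimulated for 24 h with IL4 and IL13, or with IL4, IL13 and TNF, each at 10 ng/ml, so that both groups carry IL4+IL13 and differ by TNF alone. Live cells of 2 mice were sorted one per well into 4 plates, and each plate held both treatments of 1 mouse in separate rows, so that the position on a plate and the treatment cannot be told apart. Full-length Smart-seq2 libraries were made from each well. After quality filters 690 cells with IL4+IL13 (357 of mouse 1 and 333 of mouse 2) and 696 with TNF (347 and 349) remained of 1524 wells. The mouse was the replicate, so n = 2 for each treatment.

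Fc gamma receptors bind the constant part of IgG and let macrophages take up, kill or react to what antibodies have coated. The activating receptors have no signalling motif of their own and pass the signal on through the FcR gamma chain, whose ITAM is phosphorylated by Src family kinases and then recruits the kinase Syk. Fcgr2b carries an ITIM in its own tail and recruits the phosphatase SHIP1, the product of *Inpp5d*. The balance of activating and inhibitory receptors is known to set how strongly a macrophage answers immune complexes.

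The kept cells carried a median of 472320 fragments, with a range of 200235 to 6122892, and their median in the 4 sets of mouse and treatment lay between 447264 and 490310. Of the 8 macrophage markers, *Csf1r* and *Lyz2* were found in all cells at equal depth, *Cd68*, *Adgre1*, *Spi1* and *Cd14* in 97.7% to 99.8%, and *Itgam* in 93.8%. *Mertk* was the exception, found in 24.96% of cells at 14.2 and 33.7 CPM (fragments of a gene per 1e6 fragments of the sum) without TNF and 6.15 and 13.2 CPM with it. NK cell genes were found in at most 0.64% of cells, with *Ncr1* and *Gzma* at 0 fragments, and *Cd79a* of B cells in 0.56%. *Ighm* was the exception among the B cell genes. It was found in 46.3% of cells, at 136 and 122 CPM without TNF and at 34.9 and 18.6 CPM with TNF, and its part in the results on *Fcgr2b* was not tested. Among the 5 dendritic cell genes *Flt3* was found in 88.2% of cells, at 6.94 to 7.36 CPM in the 4 sets, and *Ccr7* in 13.4%. *Ccr7* went from 0.112 and 0.450 CPM to 20.5 and 190 CPM with TNF. *S100a8* of neutrophils was found in 12.2% of cells, and the summed level of the 6 neutrophil genes was 1.05 to 2.24 CPM without TNF and 1.72 to 5.35 CPM with it. The part of these lists in the results was not tested.

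On mouse genome build mm10, *Fcgr2b* (chr1:170958617-170976547), *Fcgr4* (chr1:171018920-171029761), *Fcgr3* (chr1:171051174-171064935) and *Fcer1g* (chr1:171229572-171234365) lie together on chromosome 1, and *Fcgr1* (chr3:96282909-96293969) lies alone on chromosome 3. *Fcgr4* is on the plus strand and the other 4 on the minus strand. Promoter sequences were taken from RefSeq (GRCm38.p6), where all 5 genes had an entry from 250 bases before to 50 after the start. They were searched on both strands for 5 motifs by their letters, and matches were found in the promoters of *Fcgr1*, *Fcgr3* and *Fcgr4*. The 130 bases from 120 before the start to 10 from it are shown for these activating receptors because each holds a match of the PU.1 motif (GAGGAA, read on the opposite strand as TTCCTC) near the start. Capitals mark all matches, and the sequences are written 5′ to 3′ on the strand of the gene, at chr3:96293960-96294089, chr1:171059385-171059514 and chr1:171018806-171018935.

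Fcgr1: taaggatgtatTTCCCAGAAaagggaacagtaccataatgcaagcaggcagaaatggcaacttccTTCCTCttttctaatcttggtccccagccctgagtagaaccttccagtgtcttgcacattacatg
Fcgr3: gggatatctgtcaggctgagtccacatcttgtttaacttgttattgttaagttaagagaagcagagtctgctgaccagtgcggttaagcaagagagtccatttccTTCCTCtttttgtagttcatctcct
Fcgr4: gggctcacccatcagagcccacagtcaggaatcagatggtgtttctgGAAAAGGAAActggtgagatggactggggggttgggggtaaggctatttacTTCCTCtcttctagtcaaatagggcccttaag

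The PU.1 match begins 55 bases before the start of *Fcgr1*, 15 before that of *Fcgr3* and 22 before that of *Fcgr4*. RefSeq lists another start of *Fcgr3*, from which the match begins 6 bases before, and both starts lie inside the gene as the count table gives it, not at its end. PU.1 is the transcription factor that macrophages depend on, and these letters occur in 28.3% of the 32851 promoters of the same length. *Fcgr1* also holds a GAS match (TTCNNNGAA, the form bound by STAT dimers), which begins 109 bases before the start and occurs in 8.30% of promoters. *Fcgr4* holds an ISRE match (TTTCNNTTTC, read on the opposite strand), which begins 73 bases before the start and occurs in 3.44%. The STAT6 motif (TTCNNNNGAA, found in 6.95% of promoters) and the AP-1 motif (TGANTCA, found in 7.81%) had no match in these windows, and *Fcgr2b* and *Fcer1g* had no match of any of the 5 motifs. A match of letters is a description and does not show a bound site.

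All 4 receptors had lower CPM with TNF, in both mice. *Fcgr1*, which encodes the high-affinity receptor for monomeric IgG2a, stood at 68.6 CPM in mouse 1 and 66.6 CPM in mouse 2 under IL4+IL13, and at 20.1 and 20.6 CPM under IL4+IL13+TNF. The mice were close to each other in each treatment and the treatments did not overlap. The level with TNF was 29.2% and 31.0% of that without, a log2 fold change of -1.73 ± 0.18 (SE, n = 2 mice per treatment). *Fcgr4*, which encodes a receptor for IgG2a and IgG2b, had 23.8 and 30.1 CPM without and 10.6 and 16.8 CPM with TNF, a log2 fold change of -0.97 ± 0.31. Its groups did not overlap either, and mouse 2 was the higher in both.

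*Fcgr3* encodes the low-affinity activating receptor for immune complexes and was the receptor with the most fragments. It had 1197 and 937 CPM with IL4+IL13 and 665 and 585 CPM with TNF, a log2 fold change of -0.77 ± 0.18. The inhibitory *Fcgr2b* had 353 and 536 CPM without and 189 and 340 CPM with TNF, a log2 fold change of -0.75 ± 0.36. Mouse 2 had more *Fcgr2b* than mouse 1 under both treatments, 1.52 times as much without TNF and 1.80 times with it, so that mouse 2 with TNF lay just below mouse 1 without TNF. *Fcgr3* ran the other way between the mice, at 0.783 and 0.880 times. *Fcer1g*, the chain they share, had 3029 and 2850 CPM without and 2575 and 2553 CPM with TNF, 85.0% and 89.6% of the level without TNF and a log2 fold change of -0.20 ± 0.12. The plot of CPM by mouse shows the 5 genes side by side.

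**Figure D1:**
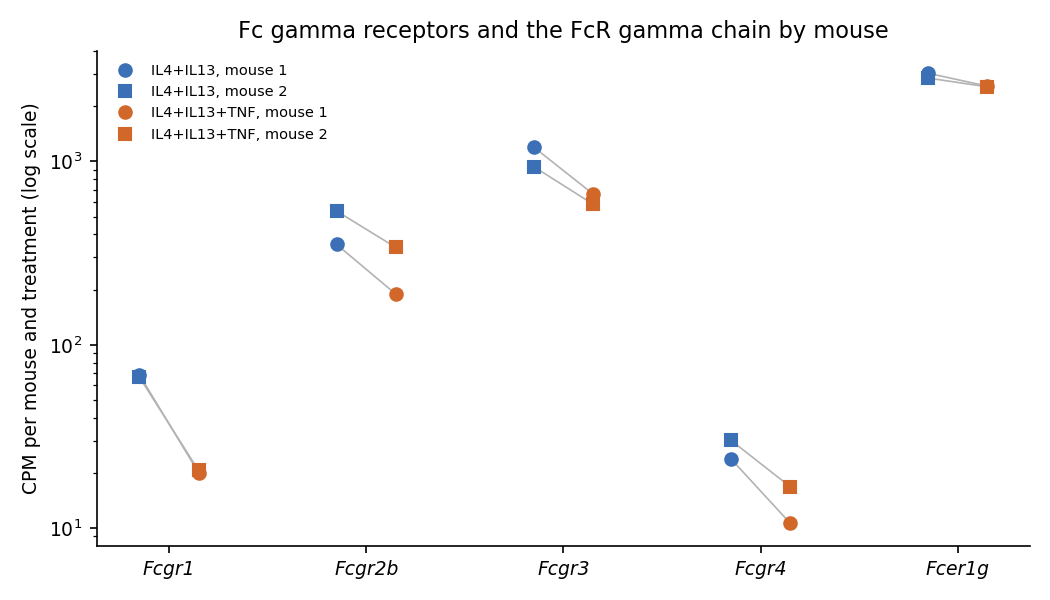
CPM (log scale) of the 5 genes in the summed cells of each mouse and treatment; circles are mouse 1, squares mouse 2, blue IL4+IL13, orange IL4+IL13+TNF, and grey lines join the same mouse. Each line falls from left to right, most steeply for *Fcgr1* (68.6 to 20.1 and 66.6 to 20.6 CPM) and least for *Fcer1g* (3029 to 2575 and 2850 to 2553 CPM).

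Whether these differences passed the test depended on the mouse as a term of the model and, for *Fcgr1*, also on the method. In the edgeR quasi-likelihood fit with treatment alone, none of the 5 genes passed an adjusted p of 0.05, where 0.00587% of 17034 genes (1 gene, *Clec4e*) did. Adjusted p was 0.135 for *Fcgr1*, 0.359 for *Fcgr3*, 0.506 for *Fcgr4*, 0.695 for *Fcgr2b* and 0.785 for *Fcer1g*, and 3 of the 5 (*Fcgr1*, *Fcgr3* and *Fcgr4*) had an unadjusted p under 0.05 (2.03e-04, 8.14e-03 and 0.0254), where 8.1% of all genes did. With the mouse as a replicate block, 4 of the 5 genes passed, all lower with TNF, where 3.82% of all genes were called and 1.88% were called as lower. The blocked log2 fold changes were -1.73 ± 0.13 for *Fcgr1* (adjusted p = 0.00798), -0.76 ± 0.09 for *Fcgr3* (adjusted p = 0.0193), -0.78 ± 0.11 for *Fcgr2b* (adjusted p = 0.0274) and -1.002 ± 0.173 for *Fcgr4* (adjusted p = 0.0480). *Fcer1g* did not pass with the replicate block (-0.20 ± 0.07, adjusted p = 0.180). DESeq2 on the same sums without the block, where 3.51% of genes were called, passed *Fcgr1* alone (adjusted p = 3.03e-11), with *Fcgr3* at 0.0657 and *Fcgr4* at 0.0908. In all 5 genes both sums with TNF lay below both sums without, which held for 17.9% of all genes.

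Within plates, where both treatments were handled together, the direction was the same on 4 of 4 plates for each of the 5 genes, against 16.8% of 17030 genes. *Fcgr1* differed by -1.53, -1.99, -1.48 and -1.93 log2 units on plates 2, 3, 4 and 5. *Fcgr3* differed by -0.85, -0.84, -0.58 and -0.80, and *Fcgr2b* by -0.94, -0.88, -0.73 and -0.60. *Fcgr4* was the least even, with -0.50 on plate 2 and -1.63 on plate 3, both of mouse 1, and -0.80 and -0.91 on the plates of mouse 2. Its level without TNF was 15.97 CPM on plate 2 and 31.2 CPM on plate 3. *Fcer1g* stayed within -0.30 to -0.13.

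**Figure D2:**
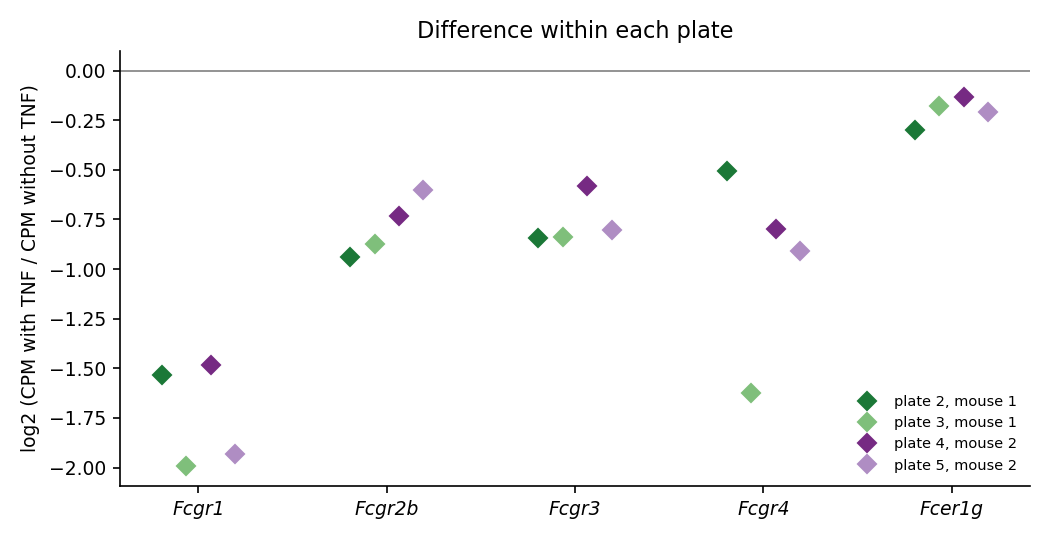
Log2 of CPM with TNF over CPM without TNF within each of the 4 plates (diamonds, green for the plates of mouse 1 and purple for those of mouse 2), for each gene. All 20 points lie under 0, *Fcgr1* between -1.99 and -1.48 and *Fcer1g* between -0.30 and -0.13.

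The genes did not differ by equal amounts. The log2 ratio of *Fcgr1* to *Fcgr3* differed with TNF by -0.93 for mouse 1 and -1.01 for mouse 2, and that of *Fcgr1* to *Fcer1g* by -1.54 and -1.53. *Fcgr3* against *Fcer1g* differed by -0.61 and -0.52. *Fcgr2b* against *Fcgr3* was nearly level, at -0.05 and 0.02. In an exact two-sided permutation test over the 4 sums (10 pairs of genes), 6 of the pairs, among them all 4 with *Fcgr1*, gave the smallest p that 2 against 2 mice allow, 0.333, so that no pair could pass 0.05.

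Per length, the order of the receptors was the same in all 4 sets at the top and changed at the bottom. Divided by exon length, *Fcer1g* had 2921 to 3466 CPM per kb, *Fcgr3* 337 to 689, *Fcgr2b* 32.6 to 92.6, *Fcgr1* 7.74 to 26.5 and *Fcgr4* 8.47 to 23.97. *Fcgr1* was above *Fcgr4* in both mice without TNF (26.5 against 18.99 and 25.7 against 23.97) and below it with TNF (7.74 against 8.47 and 7.96 against 13.4). Among the tested genes *Fcer1g* ranked at the 99.9th percentile in all 4 sets and *Fcgr3* between the 98.8th and 99.5th, while *Fcgr1* stood at the 85.6th and 86.1st without and the 66.7th and 67.4th with TNF. The exons of *Fcgr2b* in the table add up to 5790 bases, more than the 3544 bases of its principal GENCODE transcript, so that its level per length is higher by transcript length (53.3 to 151 CPM per kb). Of the 50-base stretches of the *Fcgr3* transcript, 12.8% also occur in *Fcgr2b* transcripts, and 12.5% of those of *Fcgr2b* in other genes. The reads had 50 bases at each end and fragments that map to several places were left out, so the levels of these genes miss such fragments. The exons of *Fcgr2b* also share 155 bases with *Gm38204* on the opposite strand, and counting did not use the strand.

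In single cells the receptors divided into those found in nearly every macrophage and those found in a part of them. The latter, *Fcgr1* and *Fcgr4*, were also those with the lowest CPM, and the part of their level in this division was not tested. Each cell was thinned to 339000 fragments, which 1250 of 1386 cells reached. *Fcer1g* was found in all of these cells in all 4 sets. *Fcgr3* was found in every cell except 2 of 306 of mouse 2 with TNF, and *Fcgr2b* in 99.7% and all of the cells without and 98.3% and 99.0% with TNF. At a minimum of 5 fragments *Fcgr2b* was found in 97.0% and 96.1% of cells without TNF and in 86.8% and 89.5% with it.

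*Fcgr1* was found in 59.6% of cells of mouse 1 (198 of 332, exact 95% Clopper-Pearson interval 54.1% to 65.0%) and 57.9% of mouse 2 (179 of 309, 52.2% to 63.5%) with IL4+IL13. With TNF it was found in 23.8% (72 of 303, 19.1% to 29.0%) and 36.6% (112 of 306, 31.2% to 42.3%). The intervals cover counting error only and those of the treatments did not overlap. The mean share went from 58.8% ± 1.21 to 30.2% ± 9.08 (SD, n = 2), a difference of -28.6 percentage points (exact two-sided permutation p = 0.333, the smallest that 2 against 2 mice allow). Without thinning the mean shares were 62.5% and 33.3%.

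The intervals of the mice overlapped without TNF, and plate 4 of mouse 2 stood apart with TNF. *Fcgr1* was found in 23.4%, 24% and 27.3% of cells with TNF on plates 2, 3 and 5, and in 46.9% on plate 4. The difference from the cells without TNF on the same plate was -36.2, -35.6 and -34.6 points on plates 2, 3 and 5 and -7.42 points on plate 4, so that mouse 2 without plate 4 gives -34.6 points in place of -21.3. At a minimum of 5 fragments *Fcgr1* was found in 25.5% of cells with TNF on plate 4, against 15.5% to 18.8% on the other plates. In CPM plate 4 did not stand apart (62.2 without and 22.3 with TNF).

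*Fcgr4* was found in 28.3% (23.5% to 33.5%) and 34.3% (29.0% to 39.9%) of cells without TNF and in 19.1% (14.9% to 24.03%) and 23.5% (18.9% to 28.7%) with TNF. The interval of mouse 2 with TNF overlapped that of mouse 1 without it. The difference was -9.17 points in mouse 1 and -10.8 points in mouse 2 (exact two-sided permutation p = 0.333). On plate 2 it was -1.02 points and on the other plates -16.6, -10.6 and -11.2 points. In the same wells and at equal depth, NK cell genes were found in 0 to 0.64% of cells and T cell genes in 0.24% to 6.48%, below these shares, while *Ighm* and *Flt3* of the B cell and dendritic cell lists were found in more cells than *Fcgr4*.

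**Figure D3:**
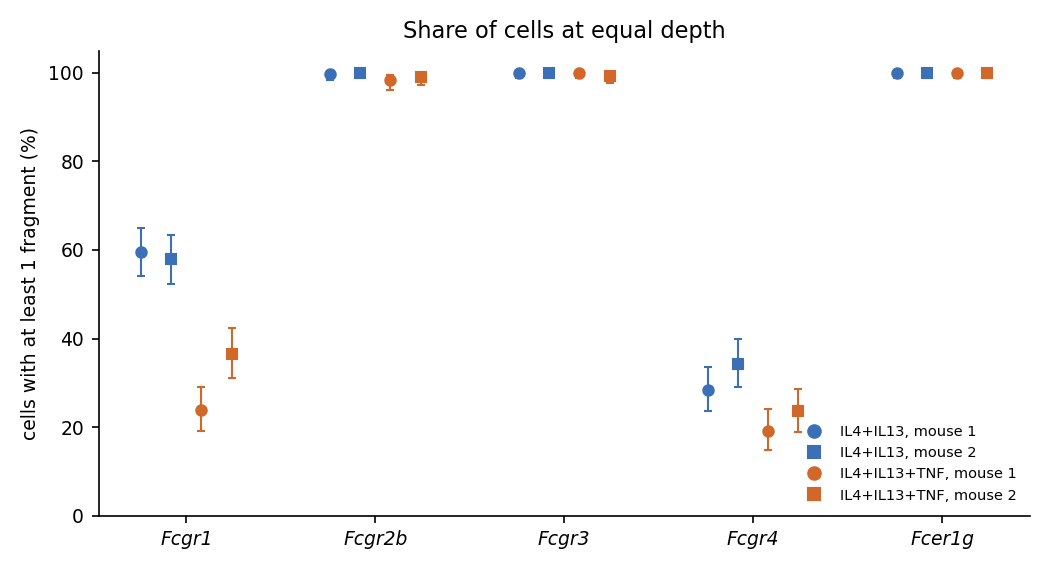
Cells in which each gene had at least 1 fragment, as a share (%) of cells, after thinning to 339000 fragments, by mouse (circle or square) and treatment (blue IL4+IL13, orange IL4+IL13+TNF), with exact 95% intervals. *Fcgr2b*, *Fcgr3* and *Fcer1g* stay above 98% in all sets, while *Fcgr1* goes from 59.6% and 57.9% to 23.8% and 36.6% and *Fcgr4* from 28.3% and 34.3% to 19.1% and 23.5%.

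Fewer cells had all 4 receptors. At equal depth 20.5% and 22.01% of cells without TNF had a fragment of each of the 4, against 4.62% and 11.8% with TNF. Cells with neither *Fcgr1* nor *Fcgr4* made up 32.5% and 29.8% without TNF and 61.7% and 51.6% with it. In every set the share with all 4 receptors equalled the share with both *Fcgr1* and *Fcgr4*. These values thus rest on *Fcgr1* and *Fcgr4* and were not tested apart from the shares of each gene given above. No cell lacked all 4 receptors in any set.

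The spread between cells followed the same division, and in the order of the genes it was larger where CPM was lower. The part of the level and its counting error in this order was not tested. The coefficient of variation of CPM over cells was 0.265 to 0.328 for *Fcer1g*, 0.476 to 0.782 for *Fcgr3*, 0.829 to 1.07 for *Fcgr2b*, 1.65 to 2.88 for *Fcgr1* and 2.49 to 3.72 for *Fcgr4*. For each of the 5 genes and in both mice it was larger with TNF than without, and so was the counting error of these lower levels, whose part was not tested. The median cell went from 1136 and 866 CPM of *Fcgr3* to 578 and 471 CPM, and from 267 and 459 CPM of *Fcgr2b* to 124 and 227 CPM. The top 5% of cells held 31.7% and 35.0% of the summed CPM of *Fcgr1* without TNF and 57.6% and 50.2% with TNF. For *Fcgr4* they held more, 49.3% and 53.0% without TNF and 69.9% and 70.6% with it. Among cells with a fragment of *Fcgr1*, the median was 70.7 and 55.2 CPM without and 48.8 and 14.3 CPM with TNF, lower in both mice. In mouse 2 with TNF, 49.7% of cells on plate 4 had such a fragment before thinning, against 31.25% on plate 5. The part of plate 4 in this median was not tested.

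The inhibitory share did not follow the treatment. It was taken in each cell as *Fcgr2b* per kb of exon over the sum of the 4 receptors per kb. Its median over cells was 6.06% and 13.02% with IL4+IL13 (mouse 1 and mouse 2, 357 and 333 cells) and 6.57% and 12.03% with TNF (342 and 336 cells with at least 10 receptor fragments). The mean of the mice was 9.54% ± 4.92 without and 9.30% ± 3.86 with TNF (SD, n = 2), and the difference of -0.24 points came from 0.51 points for mouse 1 and -0.99 points for mouse 2 (exact two-sided permutation p = 1.0). With 2 mice the data bound this difference only loosely, since the 2 mouse differences have an SD of 1.06 points. On the log2 scale the median of *Fcgr2b* over the activating receptors was -3.93 and -2.73 without and -3.77 and -2.85 with TNF.

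The mice stood further apart than the treatments. Mouse 2 was 6.96 points above mouse 1 without TNF and 5.46 points above it with TNF. The same order held by plate: the medians on the plates of mouse 1 were 5.72% to 6.69% and on those of mouse 2 11.1% to 14.5% over both treatments, and the difference with TNF was 0.70, 0.21, -2.25 and 0.42 points on plates 2, 3, 4 and 5. Mouse and plate cannot be told apart here, since no plate held both mice. By transcript length in place of exon length (an alternative chosen after seeing the data) the medians were 7.65% and 16.1% without and 8.22% and 14.9% with TNF.

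Within a set the cells covered a wide range. The 10th and 90th percentiles of the inhibitory share were 0.909% and 15.9% in mouse 1 and 2.23% and 33.4% in mouse 2 without TNF. With TNF they were 0.805% and 21.7%, and 1.47% and 39.0%, so that the upper end was higher and the lower end lower in both mice. Cells in which *Fcgr2b* exceeded the sum of the activating receptors were 0.280% (1 of 357) and 3.604% (12 of 333) without TNF and 2.34% (8 of 342) and 6.85% (23 of 336) with it. Receptor fragments per cell were fewer with TNF (median 360 and 394.5, against 723 and 733), and the part of this in the wider range was not tested. Over the summed cells *Fcgr3* made up 86.6% and 79.1% of the 4 receptors per kb of exon without TNF and 88.7% and 80.8% with it, while *Fcgr1* went from 3.33% and 3.77% to 1.79% and 1.91%.

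**Figure D4:**
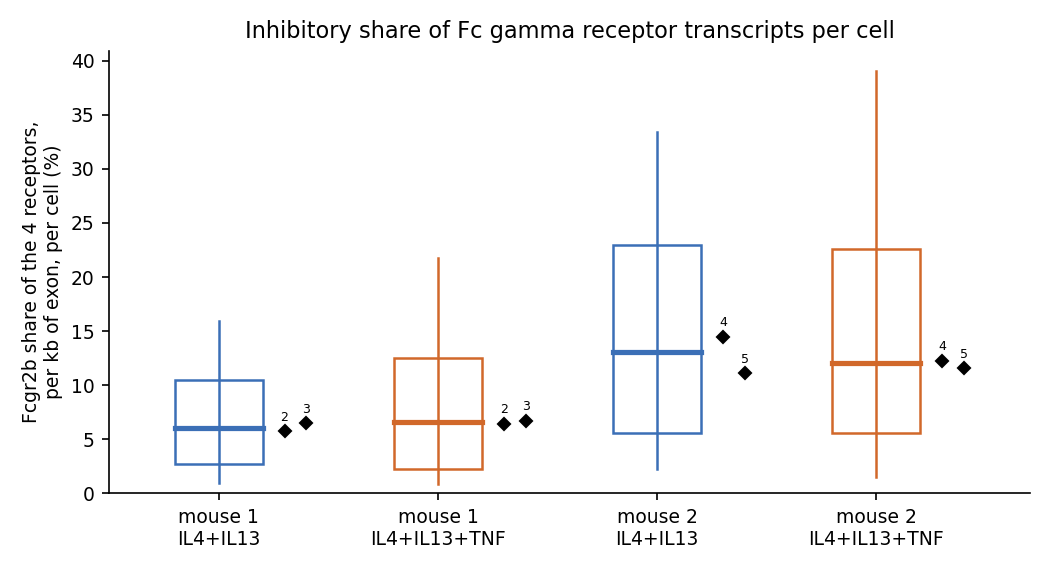
Share of *Fcgr2b* among the 4 receptors per kb of exon in each cell (%), by mouse and treatment: the thick line is the median over cells, the box the quartiles, the thin line the 10th to 90th percentile, and diamonds the medians of the numbered plates. The medians are 6.06% without and 6.57% with TNF for mouse 1, and 13.02% and 12.03% for mouse 2. The boxes of the mice stand further apart than those of the treatments.

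Across cells of the same mouse and treatment the members varied together only weakly, given here as Spearman's rho of CPM over 333 to 357 cells, which share plate and depth. *Fcgr2b* and *Fcgr3* had the closest pattern (rho 0.26 to 0.38 in the 4 sets; the transcripts share stretches of sequence), followed by *Fcgr3* and *Fcer1g* (0.20 to 0.39). *Fcgr1* and *Fcgr3* were at 0.03 to 0.05. Among 10652 genes found in at least 25% of cells, the gene most like *Fcgr2b* was *Mrc1*, the mannose receptor and an M2 gene (mean rho 0.39, range 0.27 to 0.55), followed by *Rnase4* and *Igf1* (0.33 each). The gene most like *Fcgr3* was *Lyz2*, which encodes lysozyme (0.32), and the gene most like *Fcer1g* was *Tyrobp*, which encodes the sister adaptor DAP12 (0.35, range 0.33 to 0.37). For *Fcgr1* the nearest were *C1qb*, *C3ar1* and *C5ar1*, which encode a complement component and complement receptors, at 0.22, 0.22 and 0.20. No gene exceeded 0.17 for *Fcgr4*.

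Lists of genes that mark cell states were set against the same cells. *Fcgr2b* varied with the M2 genes (*Clec10a*, *Mgl2*, *Mrc1*, *Retnla*, *Arg1* and *Chil3*) at rho 0.23 to 0.39 in the 4 sets. This list holds *Mrc1*, the gene most like *Fcgr2b*, so the results overlap. The M2 genes were at 0.12 to 0.32 for *Fcgr3*, 0.09 to 0.19 for *Fcgr1*, -0.01 to 0.17 for *Fcgr4* and -0.15 to 0.25 for *Fcer1g*. With the C1q chains (*C1qa*, *C1qb* and *C1qc*) *Fcgr2b* was at 0.12 to 0.46. *Fcgr1* varied with the interferon list at 0.20 to 0.25 and with the C1q chains at 0.17 to 0.22. The C1q chains were at 0.12 to 0.36 for *Fcgr3*, 0.05 to 0.24 for *Fcgr4* and 0.07 to 0.27 for *Fcer1g*. *Fcgr3* and *Fcer1g* had their lowest rho with the cell cycle list in IL4+IL13 of mouse 1, at -0.24 each, and were at -0.18 each in mouse 2. With TNF *Fcgr3* was at -0.03 and 0.03 and *Fcer1g* at -0.05 and -0.05. With the list of TNF response genes all 5 members stayed between -0.12 and 0.10 within sets, and with the total of fragments between -0.10 and 0.14.

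The other Fc receptors measured in these cells also had lower CPM with TNF, apart from *B2m*. Of 15 genes on this list 5 passed the filter on low values, and 4 of these were lower in both mice, beside 32.4% of all genes. None passed the test without the replicate block (4 at an unadjusted p under 0.05, beside 8.1% of all genes, and 1 by DESeq2, beside 3.51%). With it 3 did, 2 lower and 1 higher, where 3.82% of all genes were called and 1.88% were called as lower. *Fcgrt*, which encodes the neonatal Fc receptor that returns IgG from endosomes, had 85.7 and 125 CPM without and 16.7 and 32.9 CPM with TNF (blocked log2 fold change -2.14 ± 0.15, adjusted p = 0.00798). *B2m*, which encodes the light chain that pairs with the neonatal receptor and with MHC class I, went the other way, from 11562 and 12766 to 15536 and 17803 CPM (0.45 ± 0.05, adjusted p = 0.0154). *Fcrls*, an Fc receptor-like gene, had 33.4 and 50.8 CPM without and 18.7 and 24.98 CPM with TNF (-0.93 ± 0.14, adjusted p = 0.0326). *Fcrl1* had 5.50 and 4.40 CPM against 2.28 and 0.958 CPM and did not pass (adjusted p = 0.0666). The median log2 fold change of the 5 was -0.95, beside 0.00 over all genes.

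All 30 genes of activating signalling downstream of the receptors passed the filter on low values. None passed the test without the replicate block (8 at an unadjusted p under 0.05, beside 8.1% of all genes, and 4 by DESeq2, beside 3.51%). With it 5 passed, all higher with TNF, beside 3.82% of all genes called. Of these, *Fgr* and *Src* encode Src family kinases. *Fgr* had 1.06 and 1.90 CPM without TNF and 22.6 and 20.96 CPM with it (blocked log2 fold change 3.93 ± 0.32, adjusted p = 0.00894). *Src* had 0.561 and 0.854 CPM against 7.27 and 8.50 CPM (3.50 ± 0.29, adjusted p = 0.00999). *Prkcd*, which encodes protein kinase C delta, and *Lcp2*, which encodes the adaptor SLP-76, also passed, at 1.05 ± 0.11 and 0.93 ± 0.15. *Syk* had 97.2 and 139 CPM without and 145 and 196 CPM with TNF and did not pass (0.53 ± 0.10, adjusted p = 0.0622). *Lyn* and *Fyn*, of the same kinase family, did not pass and had log2 fold changes of -0.20 ± 0.11 and -0.47 ± 0.10 with the block. Over the list 13 genes were higher and 12 lower in both mice, beside 34.3% and 32.4% of all genes, and the median log2 fold change was 0.11.

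None of the 13 genes of inhibitory signalling passed in either edgeR fit, beside 0.00587% of all genes without the replicate block and 3.82% with it. In so short a list, a count of 0 is near these shares. 3 had an unadjusted p under 0.05 without the replicate block, beside 8.1% of all genes, and 5 with it, beside 21.4%. DESeq2 called 0 of them, beside 3.51% of all genes. *Inpp5d*, which encodes SHIP1, had 89.7 and 124 CPM without and 66.2 and 74.5 CPM with TNF (blocked log2 fold change -0.59 ± 0.13, adjusted p = 0.0759). *Cblb*, which encodes a ubiquitin ligase, was at -0.58 ± 0.12 (adjusted p = 0.0681) and *Pag1*, which encodes an adaptor for Csk, at 0.82 ± 0.23 (adjusted p = 0.127). The median of the list was -0.12.

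The FcR gamma chain and DAP12 also serve C-type lectins and other receptors, of which 10 of 16 listed genes passed the filter on low values. *Clec4e*, which encodes Mincle, a lectin that signals through the FcR gamma chain, had 19.2 and 21.7 CPM without TNF and 665 and 723 CPM with it (log2 fold change 5.09 ± 0.19, adjusted p = 0.0203), and was the 1 gene called without the block. With the replicate block 5 genes of the list passed, 4 higher and 1 lower, beside 3.82% of all genes called. *Clec4n*, which encodes Dectin-2, had 1.88 and 2.36 against 9.46 and 27.4 CPM (2.94 ± 0.36, adjusted p = 0.0212) and *Clec5a* 71.3 and 48.0 against 167 and 110 CPM (1.21 ± 0.11, adjusted p = 0.0120). *Cd300ld* was higher by 0.67 ± 0.10 (adjusted p = 0.0314), and *Trem2*, a lipid receptor that signals through DAP12, fell by 0.60 (adjusted p = 0.0357). *Tyrobp* itself had 1616 and 1884 CPM without and 1662 and 1732 CPM with TNF (-0.04 ± 0.08, adjusted p = 0.821). The median of the list was 0.53. The list holds a gene, *Clec4e*, that was known to respond in these data when the list was made, so its count is not independent evidence of a direction.

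Of 15 other receptors listed as of the ITIM type, 14 passed the filter on low values. The motif was not searched for in their proteins, so not every listed receptor need carry it. None passed without the block (5 at an unadjusted p under 0.05, beside 8.1% of all genes, and 1 by DESeq2, beside 3.51%). With it 4 passed, in both directions, beside 3.82% of all genes. *Cd33* had 84.9 and 97.0 CPM without and 36.7 and 33.1 CPM with TNF (blocked log2 fold change -1.38 ± 0.14, adjusted p = 0.0145), and *Cd300a* was also lower (-0.69 ± 0.11, adjusted p = 0.0353). *Clec4a2* and *Lilrb4a* were higher, at 0.70 ± 0.12 and 0.57 ± 0.10 (adjusted p = 0.0480 each). *Pilra* was at 1.45 ± 0.52 and did not pass (adjusted p = 0.196). The median of the list was 0.20.

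**Figure D5:**
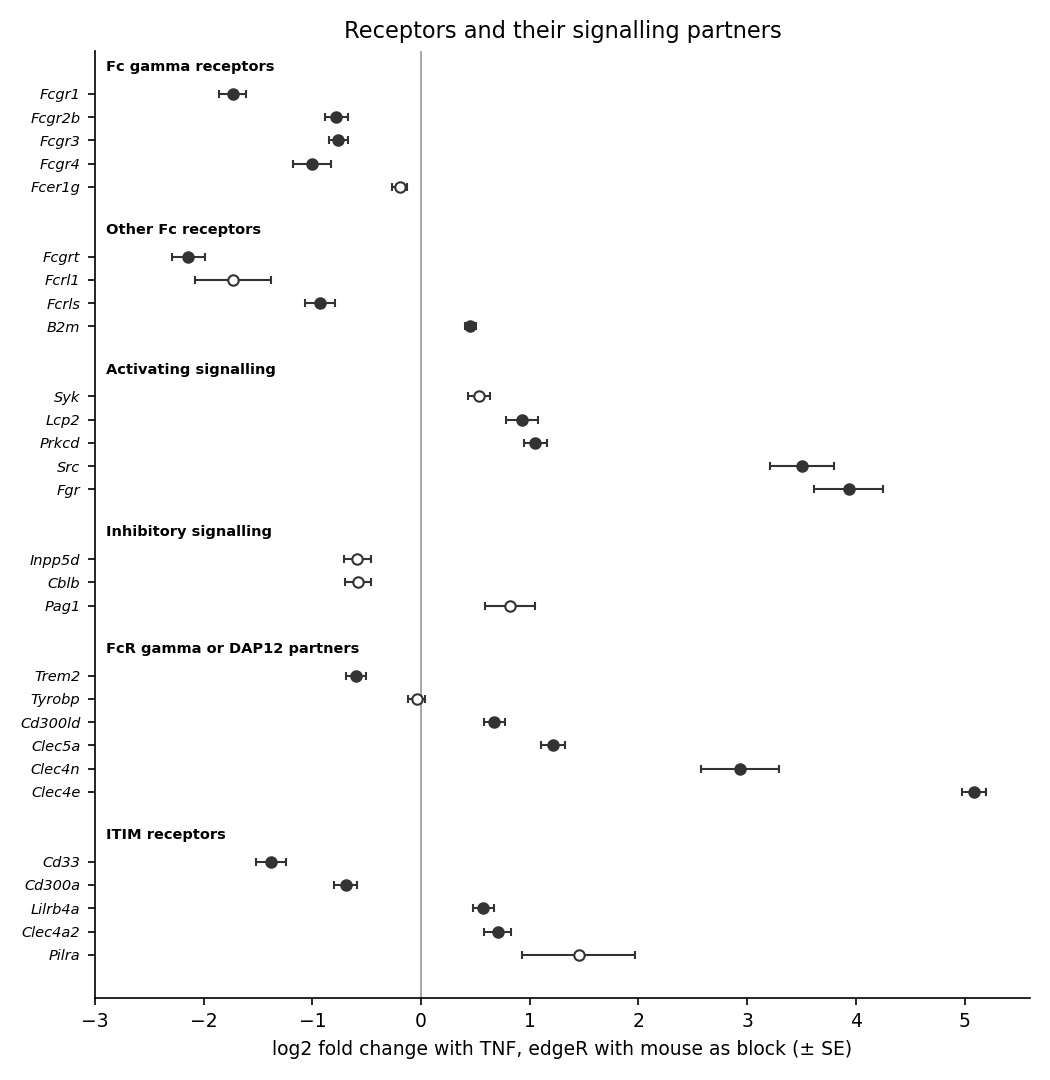
Log2 fold change with TNF in the edgeR fit with the mouse as a block (points, with SE) for the 5 genes and the named genes of each list; filled points passed an adjusted p of 0.05 and open points did not. The Fc gamma receptors lie between -1.73 and -0.76, *Fcgrt* at -2.14, and *Fgr*, *Src* and *Clec4e* at 3.93, 3.50 and 5.09.

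Of 20 tested genes within 100 kb of a member, 7 were lower and 10 higher in both mice, beside 32.4% and 34.3% of all genes, with a median log2 fold change of 0.08. None passed without the replicate block, beside 0.00587% of all genes. There, 1 had an unadjusted p under 0.05, beside 8.1% of all genes, and DESeq2 called 1, beside 3.51%. With the block 1 passed, beside 3.82% of all genes. It was *Pcp4l1*, 33.3 kb from *Fcer1g*, with a mean of 37.7 CPM without and 11.7 CPM with TNF (adjusted p = 0.0124 in the edgeR fit with the block).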

How the data were processed

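Per the labels and the study's methods, read pairs of 50 bases were mapped to mm10 by gsnap, helped by Ensembl 98 splice sites, and fragments with a single place in the genome were counted over genes by featureCounts 1.6.3. The authors deposited these counts without normalization and without removing wells; strand was not used, and the protocol has no molecular identifiers, so PCR copies are counted. The 92 spike-in rows were left out of totals and tests, 11 columns that match no well with a mouse were not used, and 4 samples stayed unassigned.

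Wells were left out per plate by 3 median absolute deviations of the log total, the detected genes, and the mitochondrial and spike-in shares. The counts of the kept cells of a mouse and treatment were added up. edgeR 4.0.16 (quasi-likelihood, TMM, Benjamini-Hochberg) was run on these sums, over genes that filterByExpr kept and that 5% or more of the cells of a treatment held; alternatives used DESeq2 1.42.0, limma 3.58.1 on log2(CPM + 1), the mouse as a replicate block, spike-in totals, and other filters. The block pairs the samples of 1 mouse, which share plates: their deviations correlated across 17034 genes (r = 0.568). The edgeR fits were first run on simulated counts. These held no difference between mice, so they cannot show which fit suits these data. CPM of sums and plates are TMM-scaled, apart from those of the cell type markers, and CPM of single cells are not. No doublet caller was run, since cells were sorted singly. Shares used cells thinned to 339000 fragments, and intervals and limits cover counting error only. Differences per plate are log2 ratios of CPM. A lone sum, where its partner was left out, was taken to vary like the sums of the other group.

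A listed gene is named where it passed in either fit, was among the 3 largest changes of its list with 1 sign in both mice, or defines the pathway; *Lyn* and *Fyn* were named after their values were seen. Per member, the 5 genes with the highest mean Spearman correlation over the 4 sets were taken as most alike. The genes and lists were chosen with earlier results of these data known. R 4.3.3 and Python 3.11.15 were used. Promoters came from RefSeq, transcripts from GENCODE. Some results are not reported here, among them 1 of the 5 genes of activating signalling that passed with the replicate block. The C1q chains were set as a list after seeing the data.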

Additional observations from a re-analysis of the deposited data

How the results depend on the processing

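The log2 fold changes of the 5 genes kept their sign under all alternatives run. With the mouse as a replicate block 4 passed the threshold (*Fcgr1* -1.73, *Fcgr2b* -0.78, *Fcgr3* -0.76 and *Fcgr4* -1.002) and with DESeq2 *Fcgr1* did (-1.74); library size, spike-in scaling, other gene and cell filters and mean CPM per cell changed no call. Spike-in scaling moved the median of all genes to 0.15 log2 units, against 0.00, and the values given here are relative to TMM. Leaving out 1 sum gave -1.75 to -1.71 for *Fcgr1*, -1.23 to -0.39 for *Fcgr2b* (-0.41 without mouse 2 of IL4+IL13, -0.39 without mouse 1 and -1.23 without mouse 2 of the TNF group), -0.93 to -0.59 for *Fcgr3*, -1.34 to -0.68 for *Fcgr4* and -0.24 to -0.16 for *Fcer1g*. Genes called numbered 1 as reported, 651 with the replicate block, 598 with DESeq2, 12 with spike-in scaling and 4 to 30 without 1 sum; the cause was not tested. The difference in share of cells with *Fcgr2b* (-1.16 points) was -0.58 without thinning, -3.29 at 169500 fragments and -8.38 at 5 fragments or more; that of *Fcgr3* (-0.33) was -2.01 and -5.09 under the last pair of settings. Without 1 mouse the shares differed by -35.9 to -21.3 points for *Fcgr1*, -10.8 to -9.17 for *Fcgr4*, -1.35 to -0.98 for *Fcgr2b* and -0.65 to 0.0 for *Fcgr3*. The inhibitory share difference (-0.24 points) reversed to 0.20 as a ratio of sums, and was -0.99 to 0.51 without 1 mouse. With 2 mice the exact tests cannot go below p = 0.333.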
